A study of Rattus norvegicus with 20 samples.

Results

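The genes described here were 9 interferon-stimulated genes of rat skeletal muscle, Stat2, Irf1, Irf7, Irf9, Isg15, Mx1, Ifit3, Ifi27l2b and Bst2. They were chosen by name for their place in the interferon response, with earlier results of these data known, and they made up 9 of the 32495 named gene rows of the count table. Their expression was measured by RNA sequencing of rRNA-depleted, stranded total RNA from gastrocnemius, a mixed but mainly fast hindlimb muscle. All animals were female Fischer 344 rats that carried the Ward colorectal carcinoma, a transplantable rat tumour left to grow for 2 weeks before any treatment. The TUMOUR STD group (5 libraries) received no chemotherapy and ate the standard diet. The CHEMO STD group (7 libraries) ate the same diet and received 2 cycles of CPT-11 (irinotecan, a topoisomerase inhibitor) followed the next day by 5-FU (5-fluorouracil, an antimetabolite). The CHEMO FO group (8 libraries) received the same 2 cycles and was switched, when chemotherapy began, to a diet containing fish oil, a source of the n-3 fatty acids EPA and DHA. Muscle was taken 7 days after the last cycle. No group without a tumour and no group given fish oil without chemotherapy was analysed here, so every comparison is between tumour-bearing rats.

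Interferons are secreted proteins that warn cells of viral infection or damaged nucleic acid. Type I interferon binds its receptor on the cell surface, and the kinases Jak1 and Tyk2 then phosphorylate Stat2, which joins Irf9 in the complex ISGF3. This complex binds the interferon-stimulated response element (ISRE) in front of antiviral genes, whereas interferon gamma acts mainly through the gamma-activated site (GAS). In skeletal muscle the same genes are known to be raised in inflammatory muscle disease. Among the 9 genes, Stat2 and Irf9 are parts of ISGF3, Irf1 is an early target of interferon gamma, and Irf7 carries the amplifying loop of type I interferon. The other 5 are effectors: Isg15 encodes a ubiquitin-like protein that is joined to other proteins, Mx1 a GTPase that traps viral particles, Ifit3 an RNA-binding cofactor, Bst2 (tetherin) a membrane protein that holds budding virus at the cell surface, and Ifi27l2b a small membrane protein of the Ifi27 family.

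The promoters of the genes differ in the binding motifs they hold. RefSeq promoter windows of the GRCr8 rat assembly, from 250 bases before to 50 bases after the start of each gene, were held for 7 of the 9 genes, and Isg15 and Ifi27l2b were not among them. On either strand, the ISRE core GAAANNGAA was found in 3 of the 7 windows (Irf7, Ifit3 and Bst2), against 9.71% of 33469 rat promoter windows of the same length. The GAS motif TTCNNNGAA was found in 3 of the 7 (Irf1, Irf9 and Bst2), against 8.87% of the same windows. The windows of Stat2 and Mx1 held neither string of letters. The matches of the other 5 genes are shown here 5′ to 3′ on the strand of the gene, with the matched bases in capitals, to show which gene holds an ISRE core, a GAS or, in Bst2, both. They lie at chr10:38417773-38417821 on the plus strand for Irf1 (GAS), chr15:33065717-33065765 on the plus strand for Irf9 (GAS), chr1:205800063-205800111 on the minus strand for Irf7 (ISRE core), chr1:241527263-241527325 on the plus strand for Ifit3 (ISRE core, 2 matches) and chr16:18255064-18255124 on the minus strand for Bst2 (1 GAS and 2 ISRE cores that overlap each other).
Irf1: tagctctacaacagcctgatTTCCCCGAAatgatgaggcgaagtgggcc
Irf9: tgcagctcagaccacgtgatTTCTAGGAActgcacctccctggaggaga
Irf7: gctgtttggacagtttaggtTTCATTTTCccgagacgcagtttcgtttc
Ifit3: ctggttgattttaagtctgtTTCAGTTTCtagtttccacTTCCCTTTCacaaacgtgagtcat
Bst2: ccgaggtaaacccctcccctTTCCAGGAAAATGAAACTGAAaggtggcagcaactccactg
In Irf7 and Ifit3 the ISRE core reads on the opposite strand, and the matches of Ifit3 sat closest to the gene start, the nearer one 24 to 16 bases before it. A match of letters is a description and does not show that a factor was bound.

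Libraries of TUMOUR STD held 5422118 to 10857477 counts on named genes, those of CHEMO STD from 3020821 to 10516783 and those of CHEMO FO from 3035841 to 9119394. CHEMO STD replicates 1 and 2 differed by a chi-square per gene of 2.23, where sampling noise alone gives about 1. The remaining 58 within-group pairs gave 13.7 to 255. Replicates 1 and 2 were counted as 1 sample (CHEMO STD n = 6, TUMOUR STD n = 5, CHEMO FO n = 8). The labels do not say in words that each library came from a different rat, so p-values measure the spread between these samples. Fast muscle markers summed to between 117000 and 234000 normalised counts (CPM, relative to the TMM-scaled library total) in every sample, as the tissue label states. Several samples stood apart in markers of other cell types. CHEMO STD replicate 7 held 48.7 CPM over 5 B cell markers, against 0.659 or less in the other samples, and its 8 T cell markers summed to 59.9 CPM against 29.4 or less elsewhere. Cd4 alone averaged 20.8 CPM in TUMOUR STD, 20.1 CPM in CHEMO STD and 17.1 CPM in CHEMO FO, so the mean T cell sum of each group was mostly Cd4. The group means of Cd3e, Cd3g and Cd3d were 0.624 CPM or less. CHEMO FO replicate 18 reached 588 CPM over 10 macrophage markers against a highest value of 367 in the rest, and keratinocyte markers reached 474 CPM in TUMOUR STD replicate 10 and 105 CPM in CHEMO FO replicate 16. The 5 markers of plasmacytoid dendritic cells, known as strong makers of type I interferon, summed to between 0 and 10.9 CPM, highest in TUMOUR STD replicate 10 and next in CHEMO STD replicate 7 (9.42 CPM). Of these 5, Siglech and Ccr9 had 0 counts in all TUMOUR STD and CHEMO STD samples, while Spib, Pacsin1 and Ly6d were detected in both groups. The highest sums thus came from Spib, Pacsin1 and Ly6d alone, in the samples that held the keratinocyte markers (TUMOUR STD replicate 10) and B cell markers (CHEMO STD replicate 7). Whether plasmacytoid dendritic cells were present was not tested. In whole muscle, fewer cells of a type and less RNA per cell cannot be told apart.

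**Figure D1:**
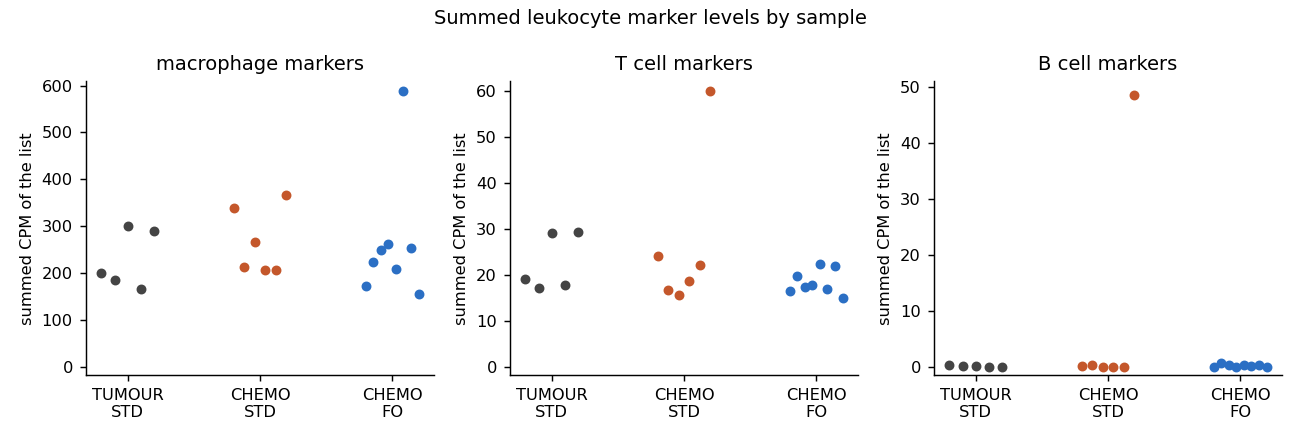
Summed CPM (y axis) of the macrophage, T cell and B cell marker lists in each of the 19 samples, by group. The mean T cell sum of each group is mostly Cd4. Each point is 1 sample; CHEMO STD replicate 7 holds the highest T cell (59.9 CPM) and B cell (48.7 CPM) sums, and CHEMO FO replicate 18 the highest macrophage sum (588 CPM).

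Of the 9 interferon-stimulated genes, none passed the test with chemotherapy on the standard diet and 1, Ifi27l2b, was lower when fish oil was added. Calls required a p below 0.05, unadjusted, in edgeR's quasi-likelihood test together with a change of at least 1.5-fold. Isg15 was too low for this fit, which covered 11716 genes, and the other 8 entered it. In CHEMO STD versus TUMOUR STD, 0 of the 8 were called, against 2.38% of all genes tested, and none had an unadjusted p below 0.05. DESeq2 and limma voom likewise called 0 of the 8 there. In CHEMO FO versus CHEMO STD, 1 of the 8 was called, Ifi27l2b, which was lower with fish oil, against 1.66% of all genes tested. CHEMO FO versus TUMOUR STD gave 0 of the 8, against 3.6% of all genes tested, and there Ifi27l2b had a p below 0.05 but a change under 1.5-fold. DESeq2 called 0 of the 8 in that comparison and limma voom with quality weights called 2, Mx1 and Ifi27l2b. No gene of the table passed a Benjamini-Hochberg adjusted p of 0.05 by edgeR in any comparison. An unadjusted p below 0.05 was found for 762, 527 and 1059 genes in the same order. If no gene differed, a share of about 0.05 of the 11716 genes tested would have such a p on average. The 527 genes of CHEMO FO versus CHEMO STD are below that share. The comparisons share samples with each other, so their values stand side by side and are not independent.

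**Figure D2:**
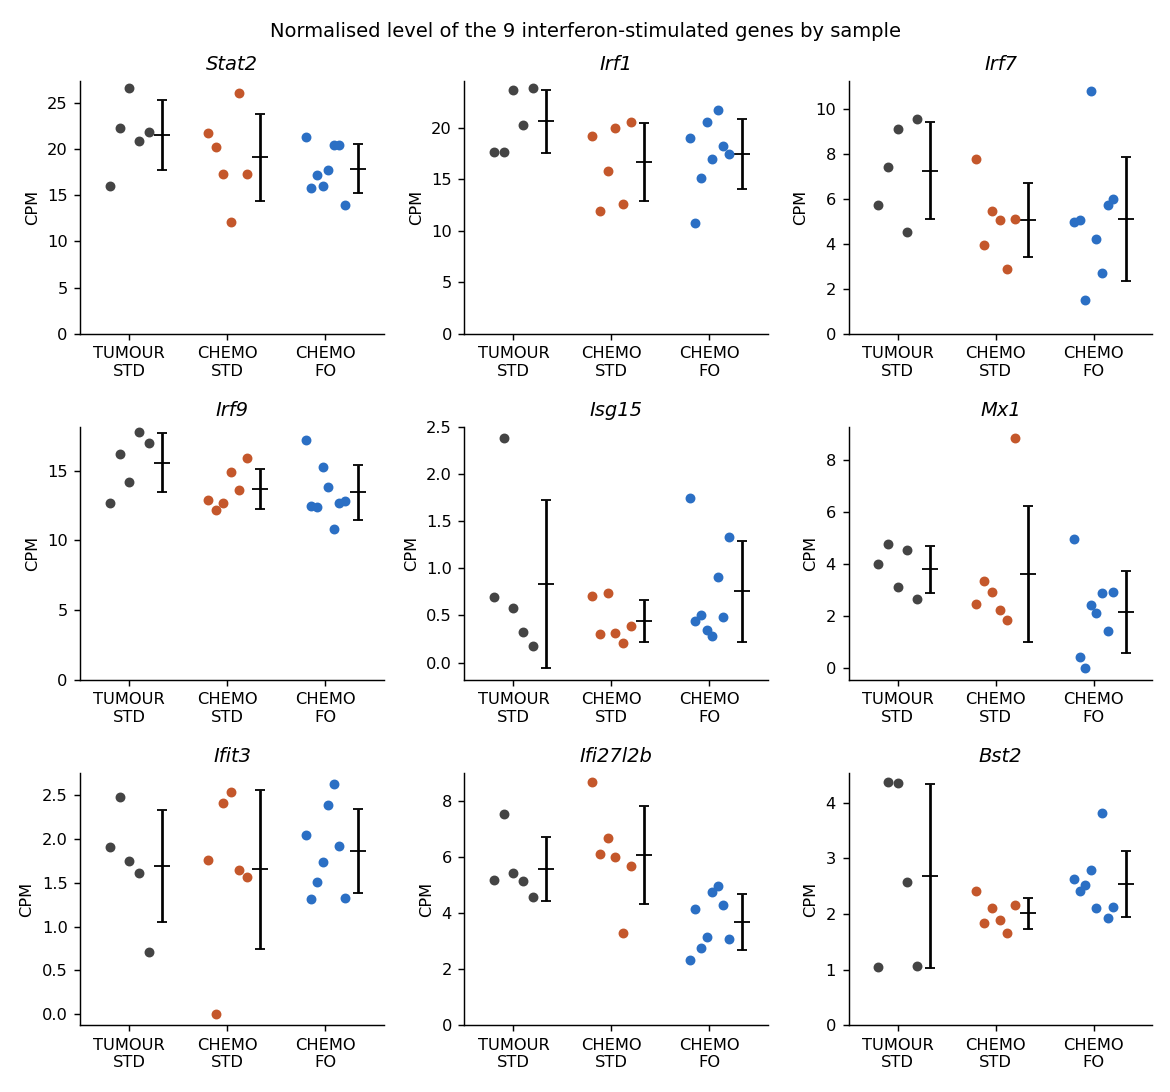
CPM (y axis, TMM-scaled) of each of the 9 genes in the TUMOUR STD (n = 5), CHEMO STD (n = 6) and CHEMO FO (n = 8) samples. Each point is 1 sample, the bar beside each group gives the mean and its whiskers 1 SD; the groups overlap for every gene, and 6 of the 8 CHEMO FO values of Ifi27l2b lie below the lowest TUMOUR STD value (4.6 CPM).

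Ifi27l2b was the gene with the clearest difference. Its level in TUMOUR STD was 5.2, 7.54, 5.43, 5.17 and 4.6 CPM in replicates 8 to 12. In CHEMO STD it ran from 3.3 CPM through a median of 6.07 to 8.71 CPM, and in CHEMO FO from 2.34 through 3.65 to 4.99 CPM. All 8 fish oil samples were below 5 of the 6 CHEMO STD samples, and the overlap came from CHEMO STD replicate 6 alone, at 3.3 CPM. The group means were 5.59 ± 1.13 CPM (SD, n = 5) in TUMOUR STD, 6.09 ± 1.74 CPM (n = 6) in CHEMO STD and 3.7 ± 0.988 CPM (n = 8) in CHEMO FO. With fish oil, Ifi27l2b fell by 0.71 on the log2 scale relative to CHEMO STD, to 0.61 of its level (SE 0.219, 95% interval -1.17 to -0.26), with p = 0.00352 in edgeR and p = 0.0123 in an exact permutation test of the mean log2 CPM (prior count 2, two-sided, 3003 arrangements). The adjusted p over all genes tested was 0.974 (edgeR, Benjamini-Hochberg), so the call did not survive correction. The exact permutation p-values given for this and the other genes are unadjusted. They test the difference of mean log2 CPM, whereas the log2 differences, SEs and intervals printed beside them are those of the edgeR fit. Without CHEMO STD replicates 1 and 2, the deepest sample of the group and the one with the highest Ifi27l2b, the difference was -0.56 and was no longer called, being under 1.5-fold. Relative to TUMOUR STD the fish oil group was lower by a log2 difference of -0.57 (SE 0.228, 95% interval -1.04 to -0.1, edgeR p = 0.0198, exact permutation p = 0.00932). Without TUMOUR STD replicate 9 this difference was -0.43, while in 5 of the 19 fits that left out 1 sample it passed 1.5-fold and was called. Chemotherapy on the standard diet moved Ifi27l2b by 0.14 (95% interval -0.35 to 0.63, exact permutation p = 0.727). Ifi27l2b is also in a gene list that the study drew from these libraries, and the files' counting could split reads between it and close relatives of the Ifi27 family.

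Markers of other cell types were called in the same comparison as Ifi27l2b. Lyz2, the lysozyme of myeloid cells, was at 43.2 CPM in CHEMO FO against 75.1 CPM in CHEMO STD (log2 difference -0.8, SE 0.231, edgeR p = 0.00207, exact permutation p = 0.004). It was also called against TUMOUR STD, where CHEMO STD was the higher (75.1 against 45.6 CPM, edgeR p = 0.0111, exact permutation p = 0.0909), and CHEMO FO differed from TUMOUR STD by -0.08, where Ifi27l2b differed by -0.57. Lyz2 was the only one of the 9 tested macrophage markers called between CHEMO FO and CHEMO STD, 6 of the 9 being lower and 3 higher. Summed macrophage markers ranged from 206 to 367 CPM in CHEMO STD and from 155 to 588 CPM in CHEMO FO. Klrd1, a receptor gene of natural killer cells and the only tested marker of its list, was called too, at 0.7 CPM in CHEMO FO against 1.95 CPM in CHEMO STD (log2 difference -1.37, SE 0.495, edgeR p = 0.011, exact permutation p = 0.00966). Both levels are low. Natural killer markers summed to 9.03 CPM in CHEMO STD replicate 7 and to between 2.22 and 4.95 CPM in the rest of that group. How far the Klrd1 call depends on single samples was not tested. The part of myeloid and natural killer cells in the Ifi27l2b difference was not tested either.

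The 4 transcription factors, which relay the interferon signal to the genome, did not pass the test in any comparison. Stat2 was 16, 22.3, 26.6, 20.8 and 21.8 CPM in TUMOUR STD replicates 8 to 12. Its level ran from 12.1 through a median of 18.7 to 26 CPM in CHEMO STD and from 13.9 through 17.4 to 21.3 CPM in CHEMO FO. The fish oil samples thus lay inside the range of CHEMO STD, and their log2 difference from TUMOUR STD was -0.27 (SE 0.16, 95% interval -0.6 to 0.06, exact permutation p = 0.0808). Irf9, the partner of Stat2 in ISGF3, was 12.7, 16.2, 14.2, 17.8 and 17 CPM in TUMOUR STD, 12.2 to 15.9 CPM (median 13.3) in CHEMO STD and 10.8 to 17.2 CPM (median 12.8) in CHEMO FO. Its log2 difference was -0.18 (SE 0.141, 95% interval -0.48 to 0.11, exact permutation p = 0.123) in CHEMO STD and -0.22 (95% interval -0.5 to 0.05, exact permutation p = 0.0925) in CHEMO FO, both against TUMOUR STD. For both genes a change of 1.5-fold lay outside the 95% interval of CHEMO STD versus TUMOUR STD and also of CHEMO FO versus CHEMO STD, where Stat2 differed by -0.11 (95% interval -0.43 to 0.21) and Irf9 by -0.04 (95% interval -0.3 to 0.23).

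Irf1 and Irf7 had the larger fitted differences among the 4 in CHEMO STD versus TUMOUR STD. Irf1 was 17.7, 17.7, 23.7, 20.3 and 23.9 CPM in TUMOUR STD, 11.9 to 20.6 CPM (median 17.5) in CHEMO STD and 10.8 to 21.7 CPM (median 17.8) in CHEMO FO. Its mean of 20.7 ± 3.06 CPM (SD, n = 5) in TUMOUR STD stood beside 16.7 ± 3.82 CPM (n = 6) in CHEMO STD, a log2 difference of -0.3 (SE 0.176, 95% interval -0.66 to 0.06, exact permutation p = 0.108), and CHEMO FO differed from CHEMO STD by 0.06 (95% interval -0.27 to 0.39, exact permutation p = 0.693). Irf7, the factor that amplifies the type I response, was 5.72, 7.44, 9.11, 4.52 and 9.56 CPM in TUMOUR STD, 2.89 to 7.81 CPM (median 5.09) in CHEMO STD and 1.51 to 10.8 CPM (median 5.01) in CHEMO FO. The highest and the lowest Irf7 values of all 19 samples were both in the fish oil group, in replicates 16 and 15. Its log2 difference from TUMOUR STD was -0.48 in CHEMO STD (SE 0.325, 95% interval -1.16 to 0.19, exact permutation p = 0.0887) and -0.55 in CHEMO FO (SE 0.31, 95% interval -1.2 to 0.09, exact permutation p = 0.149). The second of these was called in 2 of the 19 fits that left out 1 sample, among them the fit without CHEMO FO replicate 16 (-0.76). Against TUMOUR STD all 4 factors had a lower fitted level in CHEMO STD (median log2 difference -0.24) and in CHEMO FO (median -0.26), where the medians of all genes tested were 0 and 0, but none of these 8 differences passed the test.

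The Mx1 differences that involve CHEMO STD depended on replicate 7 of that group. In TUMOUR STD it was 3.99, 4.76, 3.1, 4.52 and 2.66 CPM. In CHEMO STD 5 of the 6 samples lay between 1.86 and 3.36 CPM, whereas replicate 7, the sample with B cell and T cell markers, had 8.83 CPM from 45 reads. That sample also had the highest natural killer cell (9.03 CPM) and neutrophil (6.87 CPM) marker sums of all 19 samples. In CHEMO FO Mx1 ran from 0 through a median of 2.27 to 4.97 CPM, with no read in replicate 15 and 2 reads in replicate 14. Fish oil differed from CHEMO STD by -0.72 on the log2 scale (SE 0.454, 95% interval -1.66 to 0.22, exact permutation p = 0.182), and by -0.24 without CHEMO STD replicate 7. Against TUMOUR STD, CHEMO FO differed by -0.81 (SE 0.463, 95% interval -1.77 to 0.15, exact permutation p = 0.0878), with values from -1.02 to -0.64 when each sample was left out, the first of them called (without CHEMO FO replicate 13). CHEMO STD differed from TUMOUR STD by -0.09 (95% interval -1.08 to 0.9, exact permutation p = 0.569), or by -0.57 without replicate 7. The part of the other cell types of CHEMO STD replicate 7 was not tested.

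The remaining effectors were low and were not called in any comparison. Bst2 was 1.04, 4.37, 4.36, 2.58 and 1.06 CPM in TUMOUR STD, so that replicates 9 and 10 lay far above replicates 8 and 12. In CHEMO STD it was within 1.65 to 2.42 CPM (median 2) and in CHEMO FO within 1.92 to 3.81 CPM (median 2.47). The SD of Bst2 was 0.271 CPM (n = 6) in CHEMO STD against 1.66 CPM (n = 5) in TUMOUR STD, a difference in spread that was not tested. Bst2 rested on 6 to 48 reads per sample, and so few reads limit how well either spread is known. Its log2 difference was -0.44 (SE 0.337, exact permutation p = 0.649) in CHEMO STD versus TUMOUR STD. CHEMO FO was higher than CHEMO STD by 0.32 (SE 0.316, 95% interval -0.34 to 0.97, edgeR p = 0.324), where the exact permutation test of the same samples gave p = 0.039. Ifit3, which rested on 0 to 35 reads per sample, was 1.91, 2.48, 1.75, 1.61 and 0.708 CPM in TUMOUR STD, 0 to 2.54 CPM (median 1.71) in CHEMO STD and 1.32 to 2.63 CPM (median 1.83) in CHEMO FO. Its fitted differences were -0.01, 0.14 and 0.13 in the 3 comparisons, and the 95% interval of the first ran from -0.85 to 0.83, an interval that includes a change of 1.5-fold in either direction. Isg15 was counted 1 to 24 times per sample. It was 0.694, 2.38, 0.582, 0.323 and 0.177 CPM in TUMOUR STD, 0.206 to 0.734 CPM (median 0.355) in CHEMO STD and 0.281 to 1.75 CPM (median 0.492) in CHEMO FO. Exact permutation tests of its mean log2 CPM gave p = 0.459 for CHEMO STD versus TUMOUR STD, p = 0.204 for CHEMO FO versus CHEMO STD and p = 0.925 for CHEMO FO versus TUMOUR STD.

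**Figure D3:**
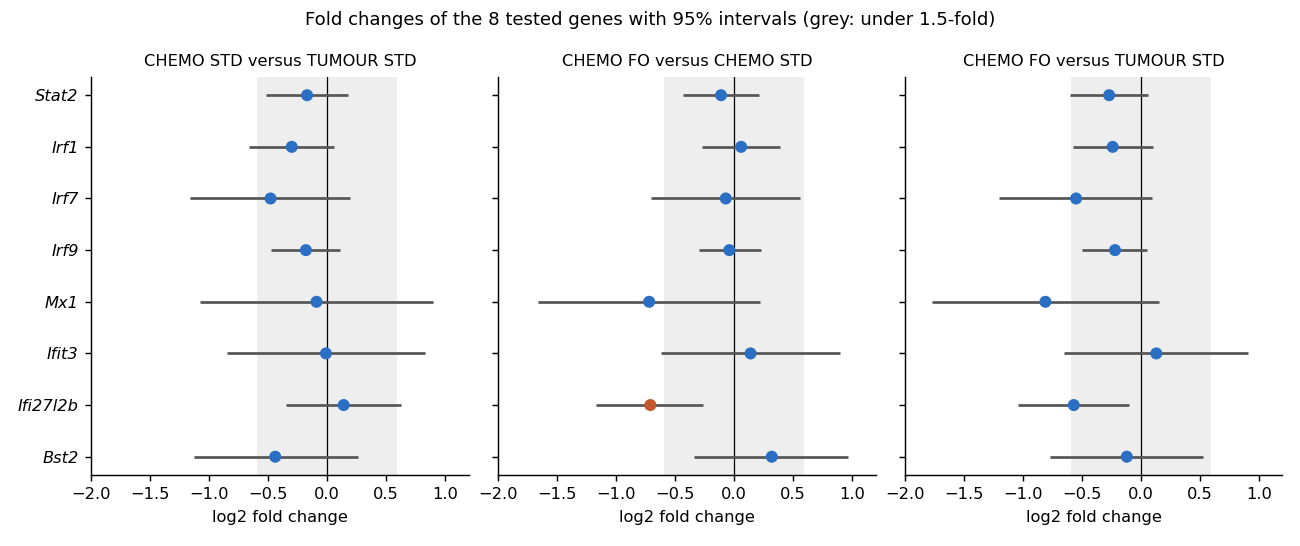
Fitted log2 fold change (x axis) of the 8 tested genes in the 3 comparisons, with 95% intervals as bars and changes under 1.5-fold shaded grey. The orange point marks the called gene, Ifi27l2b in CHEMO FO versus CHEMO STD (-0.71); the other intervals cross 0, except that of Ifi27l2b in CHEMO FO versus TUMOUR STD (-0.57).

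From sample to sample the genes moved together to differing degrees. TUMOUR STD replicate 9 was the highest of its group in 5 of the 9 genes and above the group mean in 8, and CHEMO FO replicate 13 was above its group mean in 8 and the highest in 4. CHEMO FO replicate 15 was above its group mean in 1 gene and had the lowest mean deviation (-0.57 on the log2 scale over the 9 genes). Within groups, over 19 samples and after removing group means, the Pearson r of each gene with the mean of the other tested genes ran from 0 for Stat2 through 0.12 for Ifi27l2b, 0.2 for Irf9, 0.28 for Ifit3, 0.35 for Irf7 and 0.38 for Bst2 to 0.46 for Mx1 and 0.53 for Irf1. These correlations share libraries and depth and are given as a description. The 10 genes of the whole table whose pattern within groups was most like the mean of the 8 were Tedc1 (r = 0.85), Eif4a3 (0.83), U1 (0.8), Kank1 (0.8), Pgghg (0.79), Flot2 (0.79), Phf13 (0.76), Mgat4b (0.76), Tbrg1 (0.76) and Taok2 (0.76). U1 is a name that several rows of the table carry. None of the 10 is in the interferon pathway lists, and 3 of the 72 tested pathway genes were among the 100 genes most alike of 11708, Xaf1 (r = 0.7), Lgals3bp (0.69) and Irf5 (0.66).

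**Figure D4:**
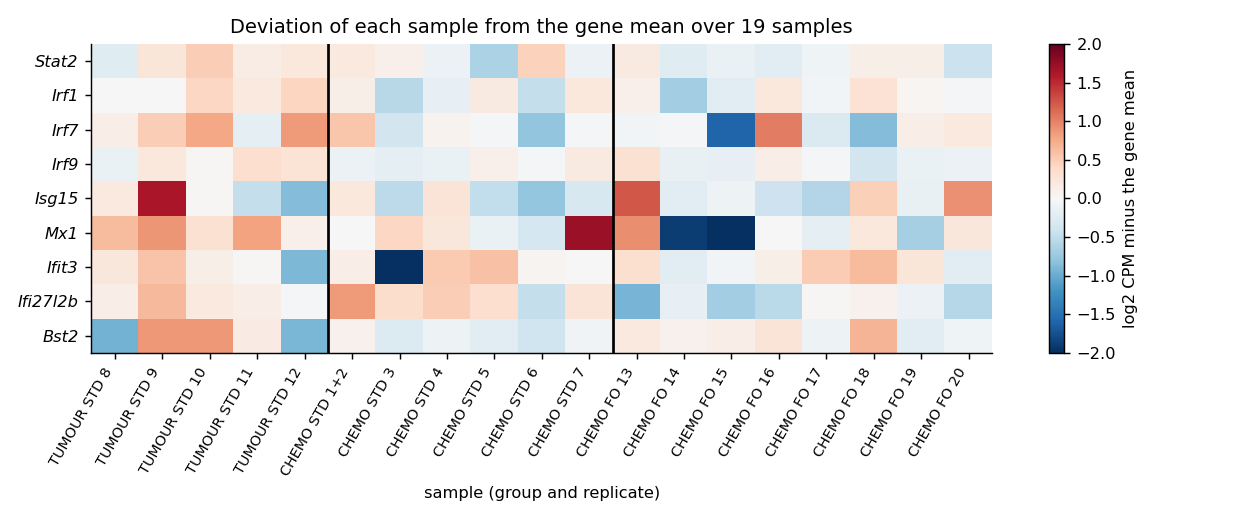
Deviation of each of the 19 samples (columns) from the mean over all samples of each gene (rows), in log2 CPM, with colours limited at -2 and 2. Red marks samples above and blue below the gene mean; TUMOUR STD replicate 9 is red or near white in all rows, while CHEMO FO replicate 15 is blue or near white in all but the Bst2 row.

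The lists of the rest of the interferon pathway held 92 other genes, of which 89 were in the table and 72 passed the filter. In CHEMO STD versus TUMOUR STD 5 of the 72 were called (2.38% over all genes tested), 3 higher and 2 lower, with 41 fitted values above 0 and a median of 0.06. In CHEMO FO versus CHEMO STD 2 of the 72 were called (1.66% over all genes tested), both lower, with 45 fitted values below 0 and a median of -0.06, against -0.01 for all genes tested. In CHEMO FO versus TUMOUR STD 5 were called (3.6% over all genes tested), Tlr7, Socs3 and Ptpn2 higher and Mx2 and Uba7 lower. Without CHEMO STD replicate 7 the first count was 3 and the second 1.

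At the top of the pathway, 2 ligand genes were listed, and both were at or near 0. Ifnb1, the gene of interferon beta, had no read in any of the 19 samples, and Ifng, the gene of interferon gamma, had 2 reads in 1 CHEMO STD sample and none in the others. Their receptors were expressed in every sample. Ifnar1 was 41.8 ± 5.05, 36.4 ± 8.57 and 40.8 ± 10 CPM (SD) in TUMOUR STD, CHEMO STD and CHEMO FO, and Ifnar2 was 8.57 ± 1.36, 8.18 ± 1.2 and 7.16 ± 1.85 CPM in the same order. The receptor of interferon gamma behaved alike, with Ifngr1 at 29.5 ± 1.77, 28.7 ± 5.09 and 30 ± 6.21 CPM and Ifngr2 at 17.7 ± 4, 15.5 ± 4.3 and 17.8 ± 2.47 CPM. None of the 4 receptor genes passed the test, and the widest interval in CHEMO FO versus CHEMO STD was -0.56 to 0.17, for Ifnar2.

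With chemotherapy, Mx2, the relative of Mx1, fell by 0.83 on the log2 scale (SE 0.305, edgeR p = 0.0126, exact permutation p = 0.0173), from 5.21 ± 1.94 CPM in TUMOUR STD to 3 ± 0.923 CPM in CHEMO STD. It was 2.85 ± 1.29 CPM in CHEMO FO, where it was called against TUMOUR STD (log2 difference -0.86, SE 0.285, edgeR p = 0.00624, exact permutation p = 0.0163) in all 19 fits that left out 1 sample, while without TUMOUR STD replicate 8 the CHEMO STD difference was -0.6 and not called. Ptpn2, a phosphatase that removes phosphate from Jak and Stat proteins, rose from 10.7 ± 2.01 to 17.1 ± 3.35 CPM (log2 difference 0.65, edgeR p = 0.0108, exact permutation p = 0.00866) and was 16.8 ± 6.66 CPM with fish oil (0.67 against TUMOUR STD, edgeR p = 0.00674, exact permutation p = 0.0249). Its call in CHEMO STD was lost without TUMOUR STD replicate 10 (0.56) or without CHEMO STD replicate 6, and with fish oil it was lost without TUMOUR STD replicate 10 or CHEMO FO replicate 18 (0.47). Nmi, a partner of Stat proteins, rose from 3.46 ± 0.805 to 5.76 ± 1.41 CPM (0.72, edgeR p = 0.0193, exact permutation p = 0.013), with 0.62 and no call without CHEMO STD replicate 7. The last of the calls were the weakest. Gbp1, a GTPase induced by interferon gamma, was 18.7 ± 8.67 against 10.7 ± 3.58 CPM (edgeR p = 0.0455, exact permutation p = 0.108), a call lost in 9 of the 19 fits that left out 1 sample, and Cd274, the ligand PD-L1, was 2.26 ± 0.82 against 3.85 ± 1.53 CPM (edgeR p = 0.0483, exact permutation p = 0.0671), lost in 12 of the 19. The smallest adjusted p of the 72 genes in this comparison was 0.719 (edgeR, Benjamini-Hochberg).

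With fish oil, the called pathway genes were both regulators typical of antigen-presenting cells. Ciita, the master regulator of MHC class II genes, was 2.35 ± 0.918 CPM in CHEMO FO against 5.37 ± 4.32 CPM in CHEMO STD, a fall by 1.27 on the log2 scale (SE 0.395, edgeR p = 0.00392, exact permutation p = 0.0656). Its highest level, 13.5 CPM, was that of CHEMO STD replicate 7, and without this sample the difference was -0.79 and still called. Irf8, a factor of myeloid and B cells, was 2.77 ± 0.749 against 5.01 ± 5.48 CPM (log2 difference -0.83, SE 0.393, edgeR p = 0.0455, exact permutation p = 0.36). Its call was lost in 8 of the 19 fits that left out 1 sample. Without CHEMO STD replicate 7, which alone had 16.1 CPM, the difference was -0.01. In that sample the B cell markers summed to 48.7 CPM, and the other CHEMO STD samples held between 0 and 0.305 CPM. The 6 tested GTPases of the interferon gamma response had fitted values at or below 0 in CHEMO FO versus CHEMO STD, with a median of -0.35, and none was called. The antiviral effectors, the largest list with 30 tested genes, had 10 fitted values above and 20 below 0 (median -0.08) and none was called. Of all 11716 genes tested, 6016 had a fitted value below 0 in this comparison (median -0.01). The direction counts of these lists were not taken again without CHEMO STD replicate 7.

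**Figure D5:**
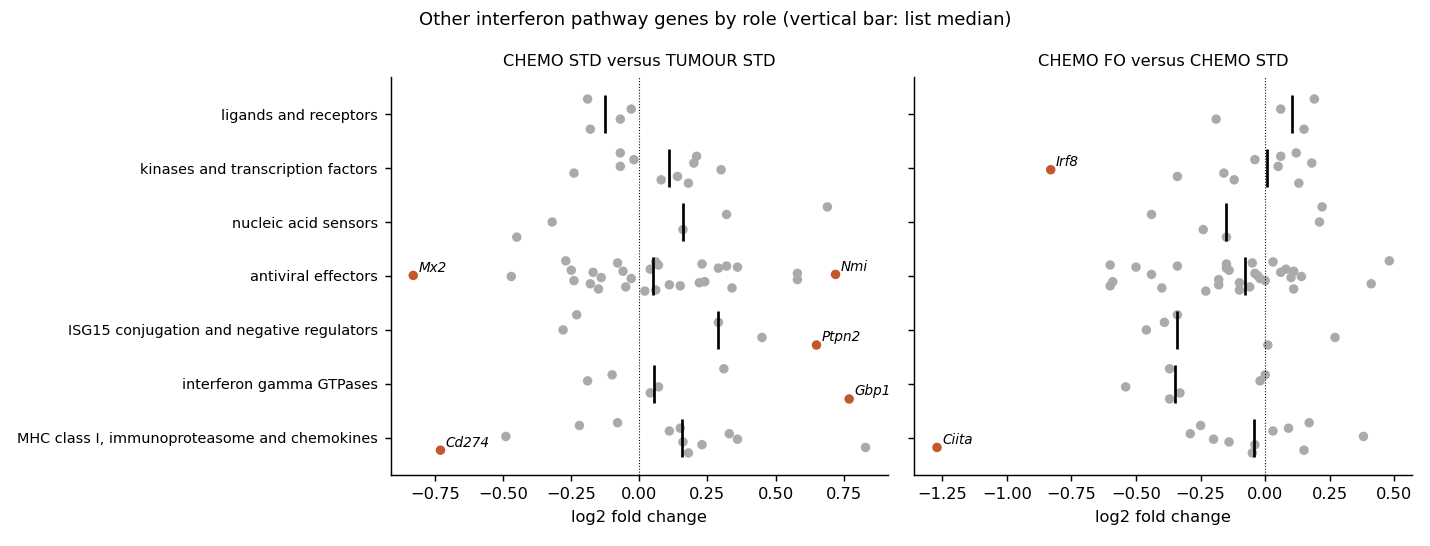
Fitted log2 fold change (x axis) of the 72 tested pathway genes other than the 9, grouped by role, in CHEMO STD versus TUMOUR STD and in CHEMO FO versus CHEMO STD. Grey points were not called, orange points were called and are named, and black bars are list medians, which lie between -0.13 and 0.29 in the first panel and between -0.35 and 0.11 in the second.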

How the data were processed

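The authors prepared stranded, rRNA-depleted libraries from gastrocnemius total RNA, sequenced them as read pairs, used CASAVA 1.9, Trim Galore 0.4.1, FastQC 0.11.4, TopHat2 2.0.10 and Bowtie2 (versions from the submitters' processing notes), aligned to Rnor 6 and deposited raw counts per gene. Counting settings, including strand and reads that fit several genes, were not given in the sources used here. A set of 388 rows without a gene name (0.102% to 0.272% of a library) was left out.

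In R 4.3.3, edgeR 4.0.16 (TMM, default filter with minimum count 10 and minimum total 15) fitted the 3 groups together by the quasi-likelihood test, with CHEMO STD replicates 1 and 2 summed. Calls used the thresholds of the study's methods, p below 0.05 and 1.5-fold, with Benjamini-Hochberg adjustment over all genes tested. SEs were taken from the fold change and its F statistic. Isg15 was tested only by two-sided exact permutation of mean log2 CPM (prior count 2), which was also run beside edgeR for the other genes. The steps were tested on simulated data.

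The genes and lists were chosen with earlier results of these data known. The genes named were the 9, the pathway genes called in CHEMO STD versus TUMOUR STD or CHEMO FO versus CHEMO STD, the ligands and receptors and the 10 most alike. The result of 1 further gene that the rule named is not reported here. The genes called in CHEMO FO versus TUMOUR STD alone and the 3 pathway genes most like the 9 were named after their values were seen, as were single marker genes. The alternatives were RLE factors, library totals, no filter, a stricter filter (mean count 10), DESeq2 1.42.0, limma 3.58.1 voom with quality weights, both CHEMO STD libraries kept separate, only the groups compared, and each sample left out. Motifs and figures used Python 3.11.15 and matplotlib 3.10.9. Promoter sequences came from RefSeq (GRCr8), and counts rest on Rnor 6, so no gene coordinates of that build are printed.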

Additional observations from a re-analysis of the deposited data

Results flagged for a closer look

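In 27 checks, 1 for each of the 9 genes in each group, 4 values in 3 samples lay so far from the rest of their group that Dixon's gap test marked them, where chance marks about 1 in 20 such checks. Isg15 was 2.38 CPM in TUMOUR STD replicate 9, next to 0.694 CPM in the sample closest to it. The same sample had the highest Ifi27l2b of its group, at 7.54 CPM next to 5.43 CPM. Mx1 was 8.83 CPM in CHEMO STD replicate 7, next to 3.36 CPM, and that sample also held the B cell and T cell markers. Bst2 was 3.81 CPM in CHEMO FO replicate 18, next to 2.79 CPM, and that sample had the highest summed macrophage markers (588 CPM). Whether those cells contributed to these values was not tested.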

How the results depend on the processing

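Of the alternatives other than leaving out a sample, 212 values of the 9 genes kept their direction and side of the threshold, 7 changed direction and 2 gained a call. The calls of CHEMO STD versus TUMOUR STD (0 of the 8 genes) and of CHEMO FO versus CHEMO STD (1, Ifi27l2b) were the same under all of these. With voom and quality weights, 2 genes were called in CHEMO FO versus TUMOUR STD, Mx1 and Ifi27l2b. The values that changed direction were all near 0, namely Ifit3 in CHEMO STD versus TUMOUR STD (0 with RLE factors, 0 with library totals, 0.01 with DESeq2), Ifit3 in CHEMO FO versus TUMOUR STD (-0.01 with voom), Irf9 in CHEMO FO versus CHEMO STD (0 with voom), Isg15 in CHEMO FO versus TUMOUR STD (-0.18 with no filter) and Bst2 in CHEMO FO versus TUMOUR STD (0.11 by exact permutation). With no filter, 971, 722 and 1116 genes were called in the 3 comparisons. Pathway genes called numbered 3 with library totals and 3 with voom in CHEMO STD versus TUMOUR STD, 4 with voom, 1 with replicates 1 and 2 separate and 1 with only the groups compared in CHEMO FO versus CHEMO STD, and 3 with voom up to 7 with no filter in CHEMO FO versus TUMOUR STD. The causes were not tested.

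Leaving out each sample, genes called ranged from 161 (without TUMOUR STD replicate 10) to 603 (without CHEMO STD replicates 1 and 2) in CHEMO STD versus TUMOUR STD and from 273 (without CHEMO FO replicate 18) to 584 (without TUMOUR STD replicate 11) in CHEMO FO versus TUMOUR STD. Of the 9 genes, 0 to 1 were called in CHEMO FO versus CHEMO STD and 0 to 2 in CHEMO FO versus TUMOUR STD. Pathway calls ran from 3 to 5, 1 to 5 and 3 to 7. In CHEMO STD versus TUMOUR STD, Isg15 ran from -0.62 to 0.01, Mx1 from -0.57 to 0.04, Ifit3 from -0.18 to 0.19 and Ifi27l2b from 0 to 0.28. In CHEMO FO versus CHEMO STD, Stat2 ran from -0.2 to 0.01, Irf1 from -0.01 to 0.14, Irf7 from -0.28 to 0.13, Irf9 from -0.09 to 0.01, Ifit3 from -0.05 to 0.29 and Ifi27l2b from -0.83 to -0.56. In CHEMO FO versus TUMOUR STD, Isg15 ran from -0.2 to 0.42, Ifit3 from -0.03 to 0.32 and Bst2 from -0.29 to 0.12. No paired analysis was possible because the groups share no replicate numbers. Isg15, Ifit3, Mx1 and Bst2 rested on few reads, which limits their precision more than that of Stat2, Irf1 and Irf9.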
